A study of Mus musculus with 9 samples.

Results

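The 44 genes described here encode proteins of the complement and coagulation systems. They were taken as a list of mouse gene symbols: complement components and their regulators, clotting factors, fibrinogen chains, anticoagulants and proteins of fibrinolysis. All 44 were present among the 55335 genes of the deposited table, and 43 of them were among the 6755 genes with a mean of at least 1 FPKM (fragments per kilobase of transcript, scaled to the mapped fragments of the library) over all mice. Complement factor D (Cfd, mean 0.391 FPKM) was the gene not tested.

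Liver RNA of 9 male B6D2F2 mice, 20 weeks old and fasted for 4 h, was sequenced, 3 mice in each of 3 groups, which asked whether the way of conception altered the liver of the offspring. NC-chow mice were conceived naturally, IVF-chow mice came from in vitro fertilization with transfer of fresh 2-cell embryos, and FET-chow mice from in vitro fertilization with transfer of 2-cell embryos that had been slowly frozen in propanediol and thawed. All were fed a normal chow, and the study names no engineered allele in any group. Embryos of both transfer groups developed in pseudopregnant ICR females, whereas NC-chow mice did not go through transfer. B6D2F2 mice are offspring of B6D2F1/J hybrids and so differ from each other in genotype. The labels number the mice 1, 5 and 6 (NC-chow) and 2, 3 and 4 (IVF-chow and FET-chow, where equal numbers are different mice) and give no litter, so that p-values measure the spread between these mice only.

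Complement is a cascade of plasma proteases and binding proteins. The classical pathway starts with C1q on bound antibody, the lectin pathway with mannose-binding lectins on microbial sugars and the alternative pathway with C3 itself. All of them cleave C3 and end in the membrane attack complex of C5 to C9. Coagulation is another cascade, in which tissue factor with factor VII, or the contact proteins factor XII, plasma kallikrein and kininogen, lead over factor X to thrombin, which turns fibrinogen into fibrin. Hepatocytes make most of these proteins and release them into blood, while C1q comes mainly from macrophages, in liver the Kupffer cells, and factor D mainly from adipocytes.

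The livers expressed the genes at very different levels. Vitronectin (Vtn), a plasma adhesion protein that also blocks the membrane attack complex, had the highest mean (443.1 FPKM), followed by the kininogen gene Kng1 (338 FPKM), complement C3 (287 FPKM), C4b (148 FPKM) and protein C (Proc, 125 FPKM). Pros1, which encodes the protein C cofactor protein S, had the lowest mean of the genes tested (2.01 FPKM). Vtn, Kng1 and C3 together made up between 31.7% (IVF-chow mouse 2) and 43.3% (FET-chow mouse 3) of the FPKM of the 44 genes. FPKM is scaled to gene length, so these levels can be set side by side.

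The libraries differed in depth and in composition. Mapped fragments, estimated from the spacing of low FPKM values, numbered 6530000 to 13140000 in NC-chow, 3830000 to 8290000 in IVF-chow and 1990000 to 2890000 in FET-chow mice, so that every FET-chow library was smaller than every other. The 3 entries of non-coding RNA at a ribosomal RNA locus or annotated as microRNA (AY036118, Gm23935 and CT010467.1) took from 3.5% (NC-chow mouse 5) to 61.9% (IVF-chow mouse 2) of all FPKM, and nuclear protein-coding genes took from 4.4% (IVF-chow mouse 2 and FET-chow mouse 4) to 29.3% (IVF-chow mouse 4). Of 9 hepatocyte markers in the table, all were above 0 in every mouse (albumin, Alb, 1324 to 20590 FPKM). The libraries of NC-chow mice 5 and 6 carry sample sheet numbers well apart from those of the other 7, which run from 67 to 76.

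The summed level of the 44 genes differed widely between mice of 1 group. It was 2297, 2939 and 3227 FPKM in NC-chow mice 1, 5 and 6, 867, 3251 and 5550 FPKM in IVF-chow mice 2, 3 and 4, and 2072, 3575 and 1117 FPKM in FET-chow mice 2, 3 and 4. The lowest and the highest sum were thus both in IVF-chow mice, 6.4-fold apart. As a share of the FPKM of nuclear protein-coding genes, the 44 genes took 2.45%, 2.13% and 2.06% in NC-chow, 2.21%, 2.97% and 2.41% in IVF-chow, and 2.27%, 2.77% and 2.46% in FET-chow mice. This share spanned 1.44-fold, and the 3 groups overlapped. For this reason each gene is given in FPKM as deposited and, where a result turns on it, after rescaling, in which the FPKM of a mouse were divided by its sum over nuclear protein-coding genes relative to the geometric mean of that sum over 9 mice. Rescaling brought the median SD within groups (log2 scale) from 0.89 to 0.40 for the 43 tested genes and from 0.81 to 0.54 for all genes tested, and it was smaller for 38 of the 43.

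**Figure D1:**
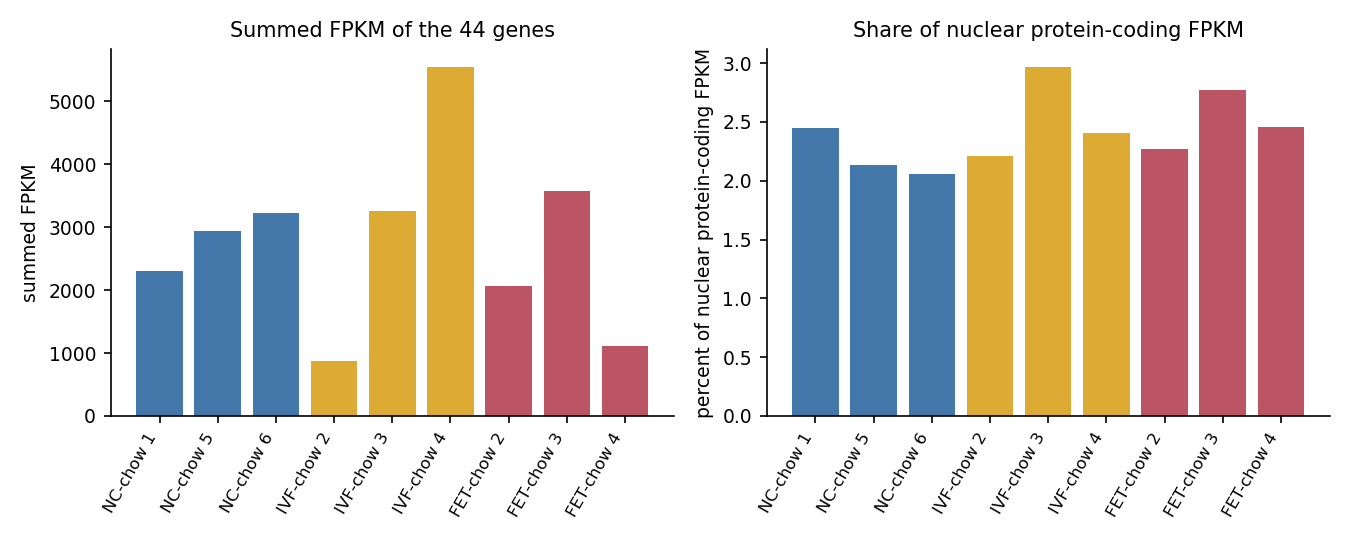
Summed FPKM of the 44 genes in each mouse (left) and their share, in percent, of the FPKM of nuclear protein-coding genes (right), 1 bar per mouse, coloured by group. The sums run from 867 to 5550 FPKM, the shares only from 2.06% to 2.97%.

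In FET-chow against NC-chow livers, most of the genes had lower FPKM, but none passed the test. The median log2 fold change of the 43 genes (on the log2(FPKM + 1) scale, as all fold changes here) was -0.65 and 37 of 43 were negative, beside a median of -0.46 and 74.3% negative over all 6755 genes. With limma, 0 of the 43 had an adjusted p under 0.05, where 16 of all genes did (0.237%). At an unadjusted p under 0.05 there were 2 of 43, Masp1 and F11, beside 12% of all genes (10.1% lower). After rescaling, the median was -0.04 with 25 of 43 negative, beside -0.06 and 53.3% over all genes; no gene of the list passed (0.266% of all genes did), and 8 of 43 had an unadjusted p under 0.05 (16.7% of all genes, 9.52% lower). These 8 were C1qb, F10 and Klkb1, higher in FET-chow livers, and Mbl2, C4bp, F2, F7 and F12, lower.

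For IVF-chow against NC-chow, the 43 genes had a median log2 fold change of -0.29 with 32 negative, beside -0.25 and 68.8% over all genes. This median turned on single mice, being 0.38 without IVF-chow mouse 2 and -0.89 without IVF-chow mouse 4. None had an adjusted p under 0.05 in limma (0.0592% of all genes did), and 1, F11, had an unadjusted p under 0.05 (4.07% of all genes, 2.86% lower). After rescaling, the median was 0.02 with 21 of 43 negative, 0 passed, as over all genes, and F7 and F11, both lower, had an unadjusted p under 0.05 (5.43% of all genes, 3.85% lower). These 2 became 5 (3 higher) without NC-chow mouse 1, 4 (2 higher) without IVF-chow mouse 4 and 1 without IVF-chow mouse 2. The shares of all genes were then 8.02%, 4.53% and 6.81%. Without NC-chow mouse 1, 14 of all genes passed the adjusted threshold (13 lower) and 0 of the list. The rescaled median of the list was -0.10 without IVF-chow mouse 3.

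Between the transfer groups, FET-chow against IVF-chow, the median was -0.43 with 33 of 43 negative, beside -0.20 and 65.4% over all genes. This median was 0.11 without IVF-chow mouse 4, 0.03 without FET-chow mouse 4 and -0.96 without IVF-chow mouse 2. None passed the adjusted threshold in limma (0.0888% of all genes did) and none had an unadjusted p under 0.05 (4.01% of all genes, 2.95% lower). Without IVF-chow mouse 2, 5 had such a p, all lower, beside 12.5% of all genes. In that fit 84.75% of all genes had negative fold changes. After rescaling, the median was -0.17 with 24 negative, none passed (0.104% of all genes did), and C1qb, F10, Fgb and Fgg had an unadjusted p under 0.05 (9.43% of all genes, 4.78% lower). Without FET-chow mouse 2 this median turned to 0.06 with 20 negative, and 1 gene was left at that level (10.4% of all genes). There were 2 such genes without IVF-chow mouse 2 (7.09% of all genes). Without either IVF-chow mouse 4 or FET-chow mouse 3 there were 6 (6.75% and 13.6% of all genes). The 3 comparisons share their groups, so they are not independent of each other.

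Single libraries weighed on these counts and on the shares over all genes. In FPKM, the 2 genes with an unadjusted p under 0.05 in FET-chow against NC-chow became 8 without IVF-chow mouse 2. Of all genes, 16.2% had such a p there. The list held 3 without either FET-chow mouse 3, NC-chow mouse 1 or IVF-chow mouse 4 (14.24%, 14.15% and 14.05% of all genes). It held 1 without FET-chow mouse 4 (9.25%). None was left without either FET-chow mouse 2, IVF-chow mouse 3, NC-chow mouse 5 or NC-chow mouse 6 (9.68%, 10.5%, 6.14% and 5.52% of all genes). A fit of these 2 groups alone gave 7 genes of the list (15.3% of all genes), and median-ratio scaling gave 10, 2 of them higher (17.0% of all genes). The median of this comparison was -1.09 without FET-chow mouse 3 and -0.45 without FET-chow mouse 4. After rescaling, 8 genes of the list had an unadjusted p under 0.05 in FET-chow against NC-chow (16.7% of all genes). They became 3, 2 and 4 without NC-chow mouse 5, NC-chow mouse 6 and FET-chow mouse 2. The shares of all genes were then 8.986%, 8.601% and 16.57%. The share of all genes thus fell as well without NC-chow mouse 5 or 6, but hardly without FET-chow mouse 2. The list held 11 without FET-chow mouse 4 and 9 without either NC-chow mouse 1 or IVF-chow mouse 2 (18.37%, 17.69% and 16.95% of all genes). Leaving out 1 of the other mice gave 7 or 8. The rescaled median of the list was 0.03 without FET-chow mouse 2 and -0.25 without FET-chow mouse 4. With only the libraries numbered 67 to 76, NC-chow mouse 1 stands alone, so only fold changes are given for the list. Its median in FET-chow against NC-chow was then -0.43 in FPKM and -0.24 rescaled, beside -0.15 and -0.04 over all genes. In IVF-chow against NC-chow it was -0.02 and -0.10, beside 0.04 and -0.07. The rescaled log2 fold changes in FET-chow against NC-chow were then 1.01 for F10, 0.99 for C1qb, -0.96 for Mbl2 and -1.25 for F11.

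**Figure D2:**
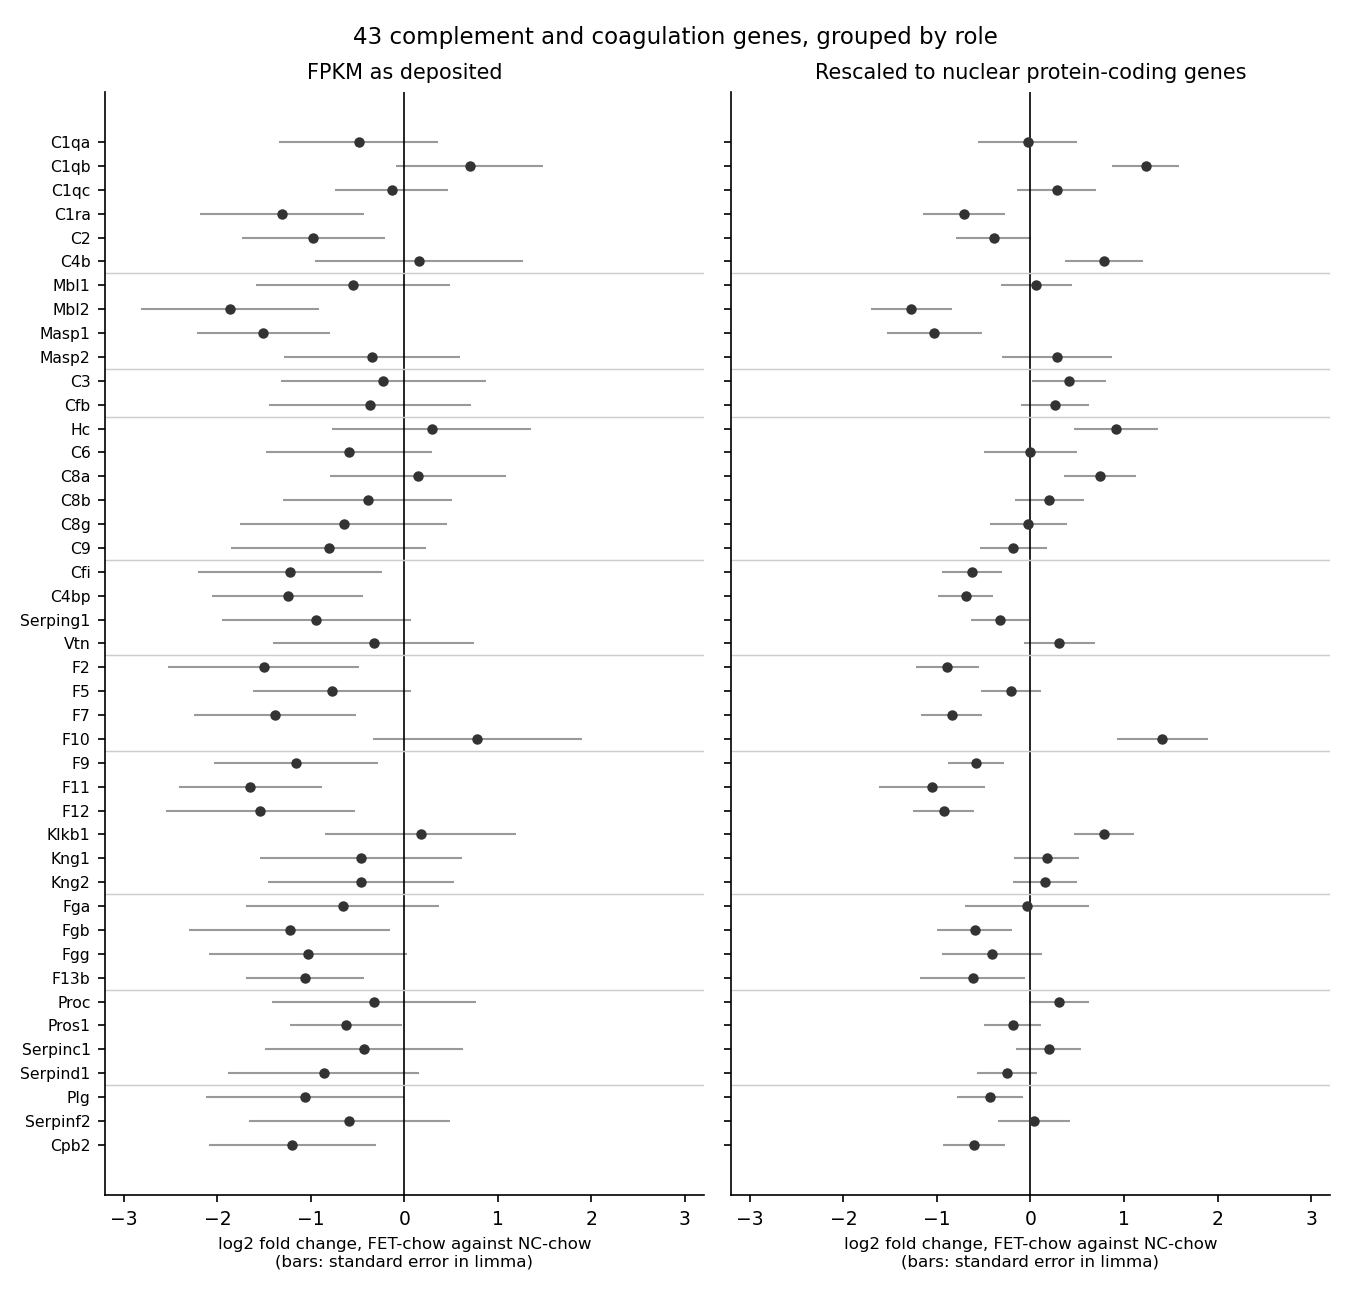
FET-chow against NC-chow log2 fold changes of the 43 genes tested, as FPKM (left) and rescaled to nuclear protein-coding genes (right); points are limma estimates from 3 mice per group, bars their standard errors, and grey lines separate the roles. On the left 37 of 43 points lie below 0, on the right 25.

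Groups that do not overlap give another view of the same values. As FPKM, 12 of 43 genes (27.9%) were lower in every FET-chow than in every NC-chow mouse and none was higher, beside 19.0% of all genes tested (17.1% lower and 1.98% higher). The 12 were C1ra, C2, Cfi, C4bp, Serping1, F2, F7, F9, F11, F12, Fgb and Cpb2. After rescaling, 10 were lower (Mbl2, Cfi, C4bp, Serping1, F2, F5, F7, F9, F12 and Plg) and 5 higher (C1qb, C8a, F10, Klkb1 and Proc), beside 21.5% of all genes (11.5% lower and 9.99% higher). Cfi, C4bp, Serping1, F2, F7, F9 and F12 were thus lower in every FET-chow mouse on both scales. The share of all genes that were lower on both scales was not counted, so this overlap cannot be set beside a background. Between IVF-chow and NC-chow, F11 alone did not overlap as FPKM, being lower (6.23% of all genes, 5.46% lower and 0.77% higher), and after rescaling 7 of 43 did not (16.2% of all genes, 11.3% lower and 4.87% higher): C2, Mbl2, C4bp, F7, F11 and Pros1 lower and Cfb higher in IVF-chow. Between FET-chow and IVF-chow, Fgg alone did not overlap as FPKM, being lower (3.83% of all genes, 2.56% lower and 1.27% higher), and after rescaling 7 did not (12.7% of all genes, 6.01% lower and 6.72% higher): Cfi, F9, Fgb and Fgg lower and C1qb, F10 and Klkb1 higher in FET-chow.

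**Figure D3:**
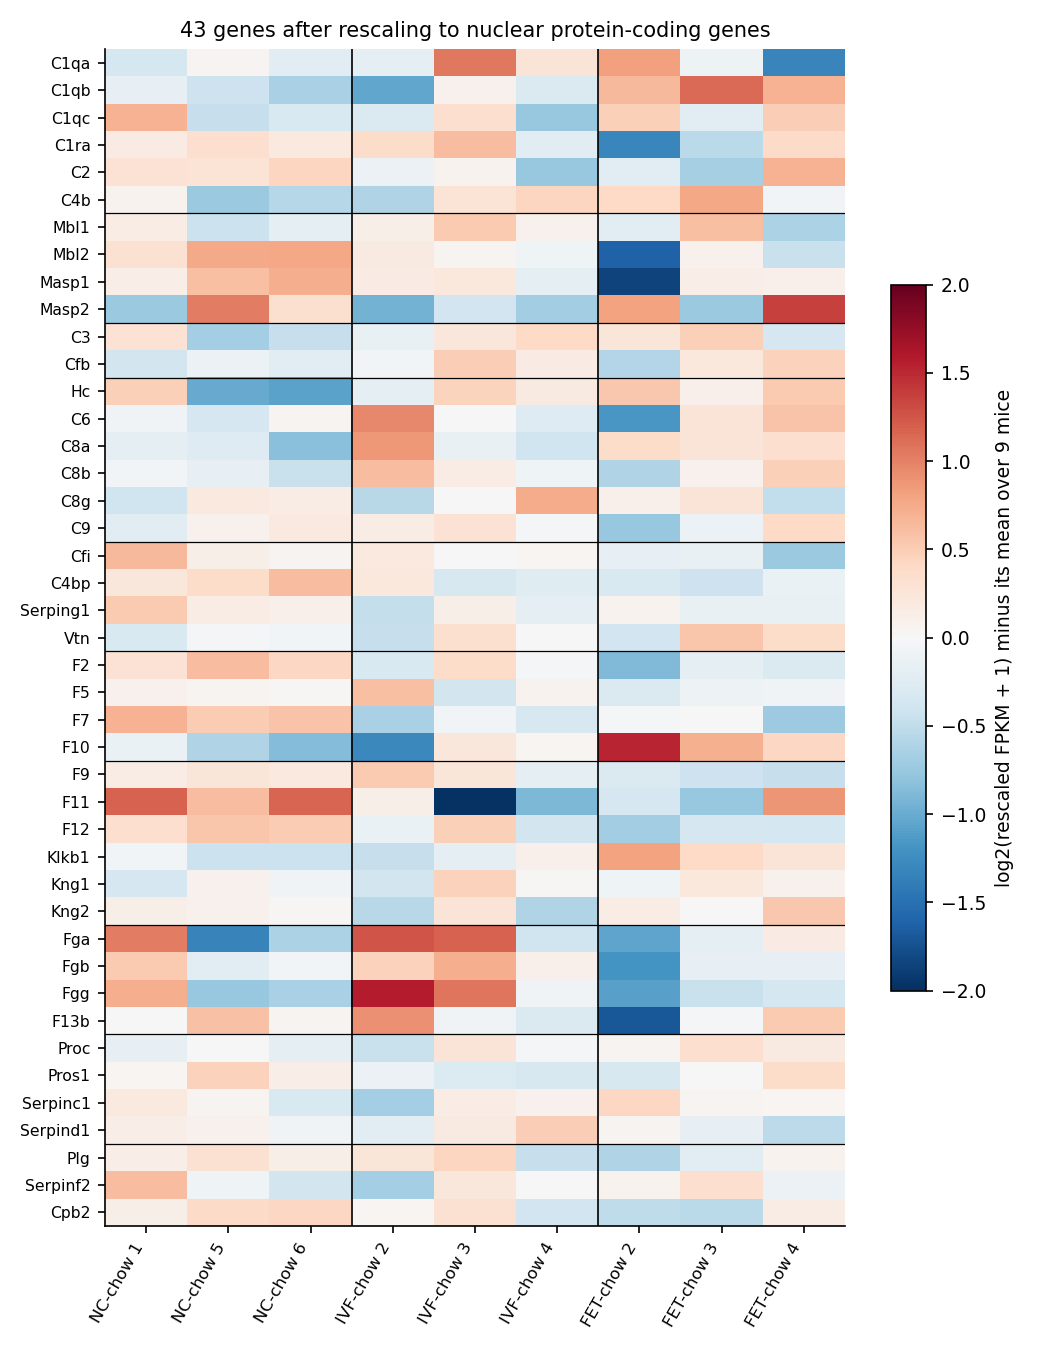
Level of each of the 43 tested genes in each mouse after rescaling, as log2(rescaled FPKM + 1) minus the mean of that gene over 9 mice (colour, from blue for lower to red for higher, with the scale ending at 2 in either direction); black lines separate roles and groups. F11 is high in the 3 NC-chow mice and low in IVF-chow mouse 3, and F10 is high in FET-chow mouse 2.

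Among the genes of the classical pathway, C1qb was higher and C1ra lower in FET-chow livers, and neither passed the test. C1qa, C1qb and C1qc encode the chains of C1q, the recognition protein of the pathway. C1qb had 4.65, 5.56 and 5.10 FPKM in NC-chow mice 1, 5 and 6, 0.888, 6.64 and 10.3 FPKM in IVF-chow mice 2, 3 and 4, and 8.61, 17.6 and 4.44 FPKM in FET-chow mice 2, 3 and 4. As FPKM the groups overlapped, with a log2 fold change of 0.70 ± 0.79 (SE; limma adjusted p = 0.768) in FET-chow against NC-chow, which was 0.25 without FET-chow mouse 3 and 1.13 without FET-chow mouse 4. Rescaled, C1qb was 4.996, 4.05 and 3.28 in NC-chow, 2.28, 6.12 and 4.51 in IVF-chow, and 9.49, 13.7 and 9.85 in FET-chow mice. On this scale every FET-chow mouse was above all 6 others, with a log2 fold change of 1.23 ± 0.36 (SE) against NC-chow (limma adjusted p = 0.172) and 1.23 ± 0.36 (SE) against IVF-chow (adjusted p = 0.351). These levels rest on few fragments, estimated at 8 to 73 per mouse for C1qb and 3 to 125 for C1qa.

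The other C1q chains did not share this order. The FPKM of C1qa were 4.87, 10.1 and 9.12 in the NC-chow mice, 2.32, 17.0 and 19.6 in the IVF-chow mice and 11.8, 8.27 and 0.998 in the FET-chow mice. C1qc stood, by mouse number, at 3.57, 1.59 and 2.19 FPKM in NC-chow, 0.561, 3.003 and 1.76 FPKM in IVF-chow and 2.87, 2.02 and 1.44 FPKM in FET-chow livers. FET-chow mouse 4 had the lowest C1qa level of all mice and the highest C1qa level was in IVF-chow mouse 4, while C1qc was highest in NC-chow mouse 1. After rescaling, the groups overlapped for both. The ratio of C1qa to C1qb, which no scaling of a library can move, was 1.05, 1.81 and 1.79 in NC-chow, 2.61, 2.56 and 1.90 in IVF-chow, and 1.38, 0.471 and 0.225 in FET-chow mice. It was lower in every FET-chow than in every IVF-chow mouse, with a log2 difference of -2.15 (two-sided exact permutation test, p = 0.1, the smallest that 3 mice against 3 allow; adjusted p = 0.55 over 33 ratio tests). The lowest ratio, in FET-chow mouse 4, rests on an estimated 3 fragments of C1qa and 14 of C1qb, and that of IVF-chow mouse 2 on 20 and 8.

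Kupffer cell markers varied beside C1q. Of 10 markers other than the C1q genes, 6 were tested, none was called in a comparison, and after rescaling 5 of the 6 were higher in FET-chow than in NC-chow with a median log2 fold change of 0.39. In FPKM, 3 of the 6 were negative with a median of -0.02, and the summed level was 21.03 to 37.2 in NC-chow and 14.4 to 106.7 in FET-chow mice. Rescaled, the sum was 22.6 to 24.2 in NC-chow, 16.8 to 33.4 in IVF-chow and 32 to 117.8 in FET-chow mice. FET-chow mouse 2 had Clec4f, a lectin specific to Kupffer cells, at 33.8 FPKM and Cd5l at 36.8 FPKM, against at most 18.5 and 7.97 FPKM elsewhere. Lyz2, Marco, Adgre1 and Folr2 were also highest in this mouse. The other markers were not, with Cd68 at 0 there. Vsig4, Timd4 and Csf1r stood at 1.36, 0.463 and 1.745 FPKM, below their highest levels elsewhere (4.37, 0.996 and 4.44 FPKM). C1qb in this mouse (8.61 FPKM) was below that of FET-chow mouse 3 (17.6 FPKM). Marco was listed at 0 in 4 mice, Adgre1 in 4 and Folr2 in 5, among them FET-chow mouse 4 for Marco and Adgre1. In whole liver, fewer cells of a type and less RNA per cell cannot be told apart, and the part of cell numbers in the C1q levels was not tested.

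C1ra, one of the C1 proteases, stood at 13, 21.6 and 22 FPKM in NC-chow mice 1, 5 and 6, at 6.31, 21 and 23.8 FPKM in IVF-chow mice and at 4.0, 10.5 and 7.38 FPKM in FET-chow mice. Every FET-chow mouse was below every NC-chow mouse, but after rescaling FET-chow mouse 4 (16.4) was above all NC-chow mice (13.9 to 15.8). NC-chow mice had 7.38, 10.7 and 13.8 FPKM of C2, IVF-chow mice 2.23, 7.22 and 7.58 FPKM and FET-chow mice 4.80, 4.62 and 4.87 FPKM. C2 supplies the protease part of the C3 convertase, and it followed the same course, FET-chow mouse 4 being the highest of all mice once rescaled (10.8). C4b is the main C4 gene. C4b had 115, 96.0 and 123 FPKM in NC-chow mice 1, 5 and 6, 29.9, 154 and 362 FPKM in IVF-chow mice 2, 3 and 4, and 141, 259.5 and 50.8 FPKM in FET-chow mice 2, 3 and 4. Its groups overlapped on both scales. C4b has a near-identical neighbour, C4a, on chromosome 17 of GRCm38, as C1ra has C1rb, so the split of fragments between them is uncertain, and the ratio of C4b to C4a lay between 1.24 and 4.71.

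The lectin pathway held Mbl2, the gene with the largest negative fold change of the list in FET-chow against NC-chow livers, although it did not pass. Mbl1 and Mbl2 encode the mannose-binding lectins and Masp1 and Masp2 the proteases that act with them. The FPKM of Mbl2 were 21.3, 43.4 and 50.05 in the NC-chow mice, 8.17, 20.7 and 39.3 in the IVF-chow mice and 4.79, 25.0 and 5.96 in the FET-chow mice. The fold change was -1.86 ± 0.95 (SE) on the log2 scale (limma adjusted p = 0.431). After rescaling, Mbl2 stood at 22.9, 31.7 and 32.2 in NC-chow, at 21.02, 19.1 and 17.2 in IVF-chow and at 5.28, 19.5 and 13.2 in FET-chow mice. Every FET-chow and every IVF-chow mouse was then below all NC-chow mice, with a log2 fold change of -1.27 ± 0.43 (SE; limma adjusted p = 0.215) for FET-chow and -0.56 ± 0.43 (SE; adjusted p = 0.952) for IVF-chow. FET-chow mouse 2 was the lowest, and its level rested on an estimated 10 fragments. Without it the rescaled log2 fold change for FET-chow was -0.79, and without FET-chow mouse 3 it was -1.65.

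Mbl1 stood, by mouse number, at 38.5, 37.7 and 50.6 FPKM in NC-chow, 15.6, 58.4 and 90.4 FPKM in IVF-chow and 28.6, 72.95 and 10.6 FPKM in FET-chow livers. These values overlapped between all groups, and the FET-chow group held both a high (mouse 3) and the lowest (mouse 4) level. The ratio of Mbl1 to Mbl2 was 1.81, 0.868 and 1.01 in NC-chow, 1.91, 2.82 and 2.30 in IVF-chow, and 5.98, 2.92 and 1.78 in FET-chow mice. IVF-chow mice were all above NC-chow mice, by 0.99 on the log2 scale (two-sided exact permutation test, p = 0.1; adjusted p = 0.55), whereas FET-chow mouse 4 lay just under NC-chow mouse 1. Within both transfer groups Mbl1 was thus above Mbl2 in every mouse, and in NC-chow mice this held in 2 of 3.

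NC-chow mice had 3.57, 7.87 and 9.78 FPKM of Masp1, IVF-chow mice 1.53, 4.45 and 6.53 FPKM and FET-chow mice 0.202, 4.92 and 1.68 FPKM. The fold change in FET-chow against NC-chow was -1.51 ± 0.71 (SE) on the log2 scale, with an unadjusted p of 0.0391 and a limma adjusted p of 0.387. It rested largely on FET-chow mouse 2, where an estimated 2 fragments were seen. Without that mouse the log2 fold change was -0.93, and on the rescaled scale -0.37. Masp2, the protease that cleaves C4 and C2, went from 3.02 FPKM in IVF-chow mouse 2 to 45.6 FPKM in NC-chow mouse 5 and overlapped between groups on both scales.

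C3, the centre of all pathways, and factor B (Cfb), the protease of the alternative C3 convertase, varied widely within groups. C3 had 267, 201 and 266 FPKM in NC-chow mice 1, 5 and 6, 82.2, 297 and 709.7 FPKM in IVF-chow mice 2, 3 and 4, and 252, 421 and 83.5 FPKM in FET-chow mice 2, 3 and 4. IVF-chow mice 2 and 4 bounded all others, and after rescaling the range narrowed to between 146 and 328 with overlapping groups. The FPKM of Cfb were 55.6, 97.9 and 103 in the NC-chow mice, 28.8, 119 and 198 in the IVF-chow mice and 46.5, 115 and 48.2 in the FET-chow mice. Once rescaled, Cfb was 59.8, 71.4 and 66.2 in NC-chow and 74.1, 109.5 and 86.4 in IVF-chow mice, so that every IVF-chow mouse was above every NC-chow mouse. FET-chow mice (51.3, 89.5 and 107) fell on either side. Cfd was listed at 0 in 6 mice, NC-chow mouse 1, IVF-chow mice 2 and 3 and all FET-chow mice, and at 0.0912 FPKM in NC-chow mouse 5, 1.73 FPKM in NC-chow mouse 6 and 1.70 FPKM in IVF-chow mouse 4. The levels above 0 rested on an estimated 1, 21 and 6 fragments. As the FET-chow libraries were the smallest, a 0 there does not show that Cfd was absent. Of the adipocyte markers, Retn was at 0 in all mice, Adipoq was above 0 only in FET-chow mouse 3 (0.785 FPKM) and Lep only in NC-chow mouse 5 (0.0254 FPKM). The summed level of the 10 markers was 10.6 to 39.0 FPKM in NC-chow, 2.0 to 18.4 FPKM in IVF-chow and 9.17 to 9.92 FPKM in FET-chow mice. The highest sum, in NC-chow mouse 6, was mostly Adrb3 (27.5 FPKM) and Pnpla2 (8.995 FPKM). Adipoq, Plin1, Lep, Retn and Cidea were at 0 in that mouse.

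The terminal pathway showed no common direction in FET-chow against NC-chow livers. Hc (complement C5), C6, C8a, C8b, C8g and C9 encode the parts of the membrane attack complex. In that comparison 4 of these 6 had negative log2 fold changes (median -0.49), beside 3 of 6 after rescaling (median 0.10). In IVF-chow against NC-chow, 2 of the 6 were negative in FPKM (median 0.07) and 0 after rescaling (median 0.39). In FET-chow against IVF-chow, all 6 were negative in FPKM (median -0.46) and 4 after rescaling (median -0.17). C8g stood, by mouse number, at 46.3, 103 and 113 FPKM in NC-chow, 17.2, 71.3 and 251 FPKM in IVF-chow and 64.0, 101 and 20.8 FPKM in FET-chow livers. This gene was the most abundant of the group and spanned 14.6-fold, all within IVF-chow mice. NC-chow mice had 17.4, 24.6 and 18.1 FPKM of C8a, IVF-chow mice 15.7, 20.9 and 36.9 FPKM and FET-chow mice 25.3, 33.2 and 12.3 FPKM. C8a spanned only 2.99-fold. Rescaled, it was 18.7, 17.9 and 11.6 in NC-chow, 40.3, 19.2 and 16.1 in IVF-chow and 27.9, 25.9 and 27.4 in FET-chow mice, so that each FET-chow mouse was above all NC-chow mice. C8b had 13.7, 18.6 and 17.1 FPKM in NC-chow mice 1, 5 and 6, 9.34, 18.5 and 32.6 FPKM in IVF-chow mice 2, 3 and 4, and 8.82, 20.9 and 9.78 FPKM in FET-chow mice 2, 3 and 4. C8b overlapped on both scales. The FPKM of C9 were 40.4, 74.01 and 91.1 in the NC-chow mice, 22.1, 67.8 and 115 in the IVF-chow mice and 26.9, 59.9 and 30.2 in the FET-chow mice. C9 overlapped on both scales, and C6 ran from 4.93 to 25.3 FPKM over all mice.

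Hc, singled out after its values were seen, was above 0 in every mouse (21.2 to 163 FPKM). DBA/2J, a grandparental strain of B6D2F2 mice, carries an Hc allele that makes no C5 protein. Rescaled levels were 88.0 in NC-chow mouse 1 against 30.7 and 29.4 in NC-chow mice 5 and 6, and between 54.6 and 91.4 in the 6 mice of the transfer groups. NC-chow mouse 1 was thus closer to the transfer groups than to its own group. The genotype of the mice at Hc was not analysed here.

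Of the complement regulators, Cfi, C4bp and Serping1 were lower in every FET-chow than in every NC-chow mouse on both scales. Factor I (Cfi) degrades C3b and C4b, with the C4b-binding protein (C4bp) as its cofactor, and Serping1 encodes the C1 inhibitor, which also restrains kallikrein and factor XII. Cfi stood, by mouse number, at 36.6, 36.7 and 40.1 FPKM in NC-chow, 11.1, 26.7 and 58.1 FPKM in IVF-chow and 19.9, 28.3 and 6.45 FPKM in FET-chow livers. FET-chow mouse 4 was the lowest. NC-chow mice had 8.43, 13.8 and 18.9 FPKM of C4bp, IVF-chow mice 3.46, 6.40 and 14.4 FPKM and FET-chow mice 5.39, 6.95 and 3.07 FPKM. The log2 fold change of C4bp was -1.25 ± 0.80 (SE; limma adjusted p = 0.548) in FPKM and -0.69 ± 0.29 (SE; adjusted p = 0.282) rescaled. The rescaled levels of C4bp were 9.05, 10.1 and 12.2 in NC-chow, 8.90, 5.90 and 6.29 in IVF-chow and 5.94, 5.42 and 6.82 in FET-chow mice. C4bp had the smallest SD within groups of the 43 genes once rescaled (0.21, log2 scale), and every IVF-chow mouse was also below every NC-chow mouse. A pseudogene of C4bp shares sequence with it, so its level is uncertain to that extent.

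Serping1 had 43.5, 49.4 and 54.0 FPKM in NC-chow mice 1, 5 and 6, 8.96, 38.2 and 64.2 FPKM in IVF-chow mice 2, 3 and 4, and 31.0, 37.4 and 13.1 FPKM in FET-chow mice 2, 3 and 4. Rescaled, NC-chow mice were at 34.8 to 46.8 and FET-chow mice at 29.2 to 34.2, close to each other at the border. The FPKM of Vtn were 282, 504 and 558 in the NC-chow mice, 106, 506 and 851 in the IVF-chow mice and 259.6, 704 and 218 in the FET-chow mice. Vitronectin, as the gene with the highest level, was lowest in IVF-chow mouse 2 and highest in IVF-chow mouse 4, like the summed level, and overlapped between groups on both scales.

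In the thrombin and extrinsic pathway, the log2 fold changes in FET-chow against NC-chow livers were positive for F10 and negative for F2, F5 and F7 on both scales, and none passed the test. F2 encodes prothrombin, F7 the protease that binds tissue factor, F10 the protease that cleaves prothrombin and F5 its cofactor. F10 stood, by mouse number, at 75.2, 79.4 and 75.01 FPKM in NC-chow, 13.9, 113 and 209 FPKM in IVF-chow and 232, 186 and 53.1 FPKM in FET-chow livers. NC-chow mice lay close together, while IVF-chow and FET-chow mice reached from far below to far above them. Rescaled, F10 was 80.8, 57.9 and 48.3 in NC-chow, 35.7, 104 and 91.4 in IVF-chow, and 256, 145 and 118 in FET-chow mice. Once rescaled, every FET-chow mouse was above all 6 others, with a log2 fold change of 1.41 ± 0.48 (SE) against NC-chow (limma adjusted p = 0.222) and 1.22 ± 0.48 (SE) against IVF-chow (adjusted p = 0.494). In FPKM the log2 fold change against NC-chow was 0.78 ± 1.12 (SE; adjusted p = 0.823), and it was 0.38 without FET-chow mouse 2 and 1.43 without FET-chow mouse 4. The rescaled one against IVF-chow was 0.74 without IVF-chow mouse 2.

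NC-chow mice had 14.8, 19.1 and 22.7 FPKM of F7, IVF-chow mice 2.21, 9.93 and 16.9 FPKM and FET-chow mice 8.37, 12.3 and 2.40 FPKM. All FET-chow mice were below all NC-chow mice. After rescaling, F7 stood at 15.9, 13.9 and 14.6 in NC-chow, at 5.70, 9.15 and 7.38 in IVF-chow and at 9.23, 9.57 and 5.34 in FET-chow mice. The 6 mice of both transfer groups (5.34 to 9.57) were thus below the NC-chow mice (13.9 to 15.9). Against NC-chow, the log2 fold change of the rescaled level was -0.84 ± 0.32 (SE; limma adjusted p = 0.248) in FET-chow mice and -0.93 ± 0.32 (SE; adjusted p = 0.835) in IVF-chow mice. F7 and F10 are neighbours on the plus strand of chromosome 8, F7 at chr8:13026034-13035809 and F10 at chr8:13037308-13056676 in GRCm38. The ratio of F10 to F7 was singled out after the values were seen, so no p-value is given for it. This ratio was 5.08, 4.15 and 3.30 in NC-chow, 6.26, 11.4 and 12.4 in IVF-chow and 27.7, 15.2 and 22.1 in FET-chow mice, so the 3 groups did not overlap.

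The sequence before both genes is shown because these neighbours differed in direction. Each window holds 250 bases before and 50 after the start of the RefSeq transcript, on GRCm38.p6 and read along the gene, F7 from chr8:13025784-13026083 and F10 from chr8:13037058-13037357. Capitals mark the letters TTNNGNAA (a loose form of the C/EBP site), GTTAAT (the core of HNF1 sites) or TATAAA (the TATA box) on either strand.
F7: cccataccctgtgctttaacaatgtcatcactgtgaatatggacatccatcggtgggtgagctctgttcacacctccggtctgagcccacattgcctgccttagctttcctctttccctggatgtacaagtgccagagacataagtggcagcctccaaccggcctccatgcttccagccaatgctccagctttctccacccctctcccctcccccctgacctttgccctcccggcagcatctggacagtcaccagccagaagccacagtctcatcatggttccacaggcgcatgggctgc
F10: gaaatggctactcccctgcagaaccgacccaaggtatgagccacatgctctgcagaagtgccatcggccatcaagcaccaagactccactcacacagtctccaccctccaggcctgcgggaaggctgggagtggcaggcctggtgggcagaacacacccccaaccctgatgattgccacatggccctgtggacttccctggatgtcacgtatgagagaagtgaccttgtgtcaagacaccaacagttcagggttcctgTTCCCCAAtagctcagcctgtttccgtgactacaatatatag
The F10 window holds TTNNGNAA once, just after the start, and the F7 window holds none of these letters. TTNNGNAA occurs in 40.7% of all 32851 mouse promoter windows of this length.

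F2 had 39.4, 73.3 and 71.5 FPKM in NC-chow mice 1, 5 and 6, 10.8, 48.4 and 77.3 FPKM in IVF-chow mice 2, 3 and 4, and 16.5, 38.8 and 12.7 FPKM in FET-chow mice 2, 3 and 4. FET-chow mice were below NC-chow mice on both scales, with a log2 fold change of -1.51 ± 1.02 (SE; limma adjusted p = 0.576) in FPKM and -0.89 ± 0.33 (SE; adjusted p = 0.240) rescaled. The rescaled levels of F2 were 42.3, 53.5 and 46.0 in NC-chow, 27.8, 44.7 and 33.8 in IVF-chow and 18.2, 30.2 and 28.1 in FET-chow mice. The lowest was FET-chow mouse 2, and IVF-chow mouse 3 reached into the NC-chow range. The FPKM of F5 were 9.83, 14.1 and 15.8 in the NC-chow mice, 6.08, 8.07 and 23.9 in the IVF-chow mice and 7.24, 11.8 and 4.25 in the FET-chow mice. As FPKM its groups overlapped, and once rescaled NC-chow mice (10.2 to 10.6) were above all FET-chow mice (7.99 to 9.44).

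In the intrinsic and contact pathway, F11 had lower FPKM in every mouse of both transfer groups and the smallest unadjusted p of the list, without passing the adjusted threshold. Factor XI activates factor IX and is itself activated by thrombin or factor XII. F11 stood, by mouse number, at 14.3, 13.7 and 23.6 FPKM in NC-chow, 2.63, 0.904 and 6.50 FPKM in IVF-chow and 4.27, 4.20 and 5.54 FPKM in FET-chow livers. Each of the 6 mice of the transfer groups was below each NC-chow mouse. The log2 fold change was -2.24 ± 0.77 (SE) in IVF-chow (unadjusted p = 0.00530, limma adjusted p = 0.522) and -1.65 ± 0.77 (SE) in FET-chow (unadjusted p = 0.0368, adjusted p = 0.382). Rescaled, F11 was 15.3, 9.995 and 15.2 in NC-chow, 6.78, 0.834 and 2.84 in IVF-chow, and 4.71, 3.27 and 12.3 in FET-chow mice. FET-chow mouse 4 then fell within the NC-chow range, while FET-chow mice 2 and 3 and all IVF-chow mice stayed below it. The rescaled log2 fold change was -1.05 ± 0.57 (SE; limma adjusted p = 0.373) in FET-chow and -1.91 ± 0.57 (SE; adjusted p = 0.701) in IVF-chow. IVF-chow mouse 3 rested on an estimated 9 fragments of F11.

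Klkb1, which encodes plasma prekallikrein, is the neighbour of F11 on the minus strand of chromosome 8, at chr8:45266689-45294859 beside F11 at chr8:45241174-45262031. NC-chow mice had 30.1, 33.8 and 38.6 FPKM of Klkb1, IVF-chow mice 9.41, 32.2 and 83.0 FPKM and FET-chow mice 53.8, 57.2 and 18.2 FPKM. Its groups overlapped in FPKM, with a log2 fold change of 0.17 ± 1.02 (SE; limma adjusted p = 0.965) in FET-chow against NC-chow, which was -0.11 without FET-chow mouse 3 and 0.69 without FET-chow mouse 4. After rescaling, Klkb1 stood at 32.4, 24.6 and 24.8 in NC-chow, at 24.2, 29.6 and 36.3 in IVF-chow and at 59.4, 44.6 and 40.5 in FET-chow mice. Rescaled, every FET-chow mouse was above all others, with a log2 fold change of 0.79 ± 0.32 (SE; limma adjusted p = 0.263) against NC-chow. The ratio of F11 to Klkb1, also singled out after the values were seen, was 0.474, 0.406 and 0.612 in NC-chow, 0.280, 0.0281 and 0.0782 in IVF-chow and 0.0795, 0.0734 and 0.304 in FET-chow mice, so every NC-chow mouse was above all others.

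**Figure D4:**
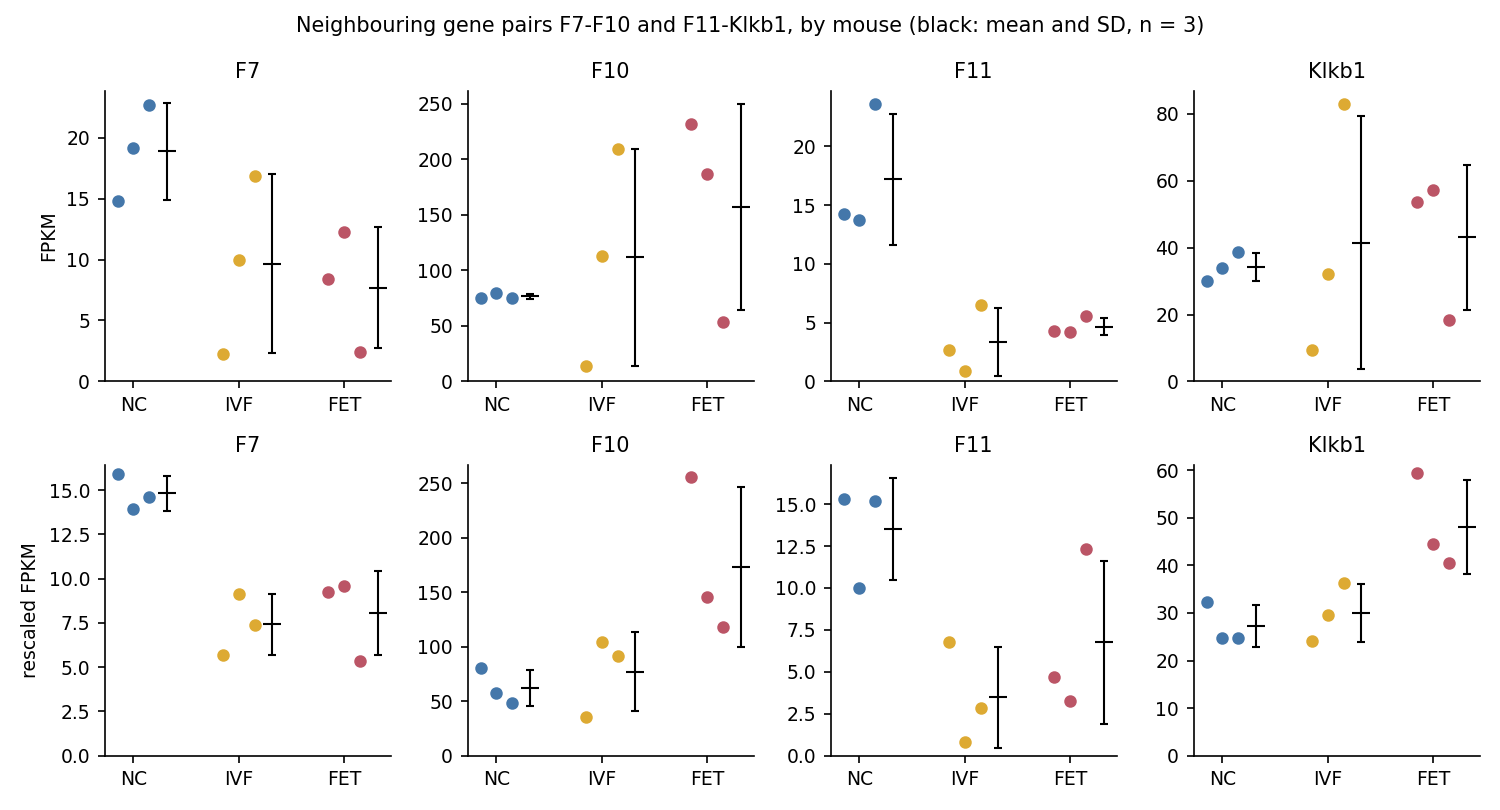
FPKM (upper row) and rescaled FPKM (lower row) of the neighbouring genes F7 and F10 and of F11 and Klkb1, 1 point per mouse, with the mean and SD of each group (n = 3) in black. Once rescaled, F7 lies at 13.9 to 15.9 in NC-chow and at 5.34 to 9.57 in all other mice, while F10 and Klkb1 are highest in FET-chow mice.

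The windows of this second pair are given in the same way, F11 from chr8:45261982-45262281 and Klkb1 from chr8:45294786-45295085, both read along the minus strand.
F11: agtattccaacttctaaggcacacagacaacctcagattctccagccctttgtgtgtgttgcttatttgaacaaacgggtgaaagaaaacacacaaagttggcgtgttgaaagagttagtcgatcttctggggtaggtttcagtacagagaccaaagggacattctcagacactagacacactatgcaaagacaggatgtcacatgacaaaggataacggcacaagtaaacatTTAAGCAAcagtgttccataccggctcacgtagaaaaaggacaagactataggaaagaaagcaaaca
Klkb1: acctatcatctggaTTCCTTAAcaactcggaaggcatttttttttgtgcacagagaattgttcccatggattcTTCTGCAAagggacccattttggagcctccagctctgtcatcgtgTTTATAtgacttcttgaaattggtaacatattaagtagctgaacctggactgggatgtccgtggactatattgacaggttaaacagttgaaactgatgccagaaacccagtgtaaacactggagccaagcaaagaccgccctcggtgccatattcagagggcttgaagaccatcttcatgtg
F11 holds TTNNGNAA once, 17 bases before the start. Klkb1 holds it at 2 places and TATAAA, found in 13.6% of all windows, 132 bases before the start.

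Factor XII, which starts the contact pathway, was lower in FET-chow than in NC-chow mice on both scales. F12 had 39.4, 67.7 and 74.6 FPKM in NC-chow mice 1, 5 and 6, 11.8, 50.6 and 58.5 FPKM in IVF-chow mice 2, 3 and 4, and 18.3, 33.7 and 11.7 FPKM in FET-chow mice 2, 3 and 4. The log2 fold change was -1.54 ± 1.01 (SE; limma adjusted p = 0.557) in FPKM and -0.93 ± 0.33 (SE; adjusted p = 0.229) rescaled. The rescaled levels of F12 were 42.3, 49.4 and 48.0 in NC-chow, 30.4, 46.6 and 25.6 in IVF-chow and 20.2, 26.3 and 25.9 in FET-chow mice. IVF-chow mouse 3 was within the NC-chow range and the other IVF-chow mice were below it. The FPKM of F9 were 12.8, 20.4 and 22.4 in the NC-chow mice, 7.08, 16.1 and 24.3 in the IVF-chow mice and 9.02, 11.6 and 3.93 in the FET-chow mice. Factor IX, encoded on the X chromosome, had rescaled levels of 13.8 to 14.8 in NC-chow and 8.73 to 9.95 in FET-chow mice, which did not overlap, and of 10.6 to 18.2 in IVF-chow mice.

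Kininogen is the substrate of kallikrein and the source of bradykinin. Kng1 stood, by mouse number, at 211, 418 and 424 FPKM in NC-chow, 86.6, 429 and 665 FPKM in IVF-chow and 244, 425 and 137 FPKM in FET-chow livers. NC-chow mice had 29.5, 42.9 and 46.2 FPKM of Kng2, IVF-chow mice 7.64, 38.2 and 43.3 FPKM and FET-chow mice 29.6, 37.6 and 19.4 FPKM. Both genes overlapped between groups on both scales. The ratio of Kng1 to Kng2 was 7.15, 9.76 and 9.16 in NC-chow, 11.3, 11.2 and 15.4 in IVF-chow and 8.25, 11.3 and 7.05 in FET-chow mice, higher in each IVF-chow than in each NC-chow mouse by 0.54 on the log2 scale (two-sided exact permutation test, p = 0.1; adjusted p = 0.55). As Kng1 and Kng2 are closely related copies, fragments may have been shared between them.

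The 3 fibrinogen chains had negative fold changes in FET-chow against IVF-chow livers, without passing the test. Fga, Fgb and Fgg encode the Aα, Bβ and γ chains, lie within a small cluster on chromosome 3, and are known as acute phase genes. NC-chow mice 1, 5 and 6 had Fga at 89.2, 24.8 and 46.2 FPKM, IVF-chow mouse 2 at 43.9 FPKM, IVF-chow mouse 4 at 80.7 FPKM and the FET-chow mice at 19.9, 52.7 and 23.8 FPKM, with IVF-chow mouse 3 above all of these. Fgb had 128, 112 and 142 FPKM in NC-chow mice 1, 5 and 6, 50.8, 171 and 232 FPKM in IVF-chow mice 2, 3 and 4, and 36.9, 109 and 38.0 FPKM in FET-chow mice 2, 3 and 4. The FPKM of Fgg were 134, 69.8 and 85.5 in the NC-chow mice, 101, 198 and 188 in the IVF-chow mice and 36.3, 81.0 and 30.4 in the FET-chow mice. For Fgg, every FET-chow mouse except mouse 3 was below all others, and mouse 3 (81.0 FPKM) was below all IVF-chow mice. The log2 fold change of Fgg in FET-chow against IVF-chow was -1.77 ± 1.06 (SE; limma adjusted p = 1.0) in FPKM and -1.49 ± 0.53 (SE; adjusted p = 0.472) rescaled, and that of Fgb -1.22 ± 1.07 (SE; adjusted p = 1.0) and -0.94 ± 0.40 (SE; adjusted p = 0.527). Fgb in this comparison was at -1.87 without IVF-chow mouse 2 and -0.79 without IVF-chow mouse 4 in FPKM, and at -0.59 without FET-chow mouse 2 rescaled.

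Rescaled, Fgg was 144, 51.0 and 55.1 in NC-chow, 259.8, 182 and 82.2 in IVF-chow, and 40.0, 63.1 and 67.6 in FET-chow mice. NC-chow mouse 1 stood above NC-chow mice 5 and 6 for all 3 chains once rescaled, with Fga at 95.9 against 18.1 and 29.7. In this mouse the acute phase genes Saa1 and Saa2 were at 56.1 and 63.1 FPKM, against at most 7.68 and 2.38 FPKM in the other 8. Against NC-chow, Fgb in FET-chow livers had a log2 fold change of -1.23 ± 1.07 (SE; limma adjusted p = 0.690) in FPKM and -0.60 ± 0.40 (SE; adjusted p = 0.478) rescaled, the latter being -0.25 without FET-chow mouse 2. For Fgg the rescaled fold change in FET-chow against NC-chow was -0.41 ± 0.53 (SE; limma adjusted p = 0.736), and 0.07 without NC-chow mouse 1. Whether an acute phase response took part in the fibrinogen levels was not tested.

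The windows of the 3 chains are shown because their genes form 1 protein and 1 cluster, with the same capitals. Fga comes from chr3:83025903-83026202 and Fgg from chr3:83007474-83007773 on the plus strand, and Fgb from chr3:83049814-83050113 on the minus strand.
Fga: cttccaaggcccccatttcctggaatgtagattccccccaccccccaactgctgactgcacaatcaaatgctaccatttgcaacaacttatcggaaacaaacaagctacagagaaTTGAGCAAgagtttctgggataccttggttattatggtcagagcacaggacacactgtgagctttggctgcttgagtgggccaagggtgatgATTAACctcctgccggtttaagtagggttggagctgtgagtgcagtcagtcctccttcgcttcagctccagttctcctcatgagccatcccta
Fgb: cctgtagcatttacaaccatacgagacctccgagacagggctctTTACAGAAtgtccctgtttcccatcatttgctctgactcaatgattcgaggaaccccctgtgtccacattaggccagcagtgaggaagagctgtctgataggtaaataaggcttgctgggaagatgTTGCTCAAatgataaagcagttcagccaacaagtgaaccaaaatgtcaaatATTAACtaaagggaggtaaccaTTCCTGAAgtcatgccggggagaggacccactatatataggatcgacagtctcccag
Fgg: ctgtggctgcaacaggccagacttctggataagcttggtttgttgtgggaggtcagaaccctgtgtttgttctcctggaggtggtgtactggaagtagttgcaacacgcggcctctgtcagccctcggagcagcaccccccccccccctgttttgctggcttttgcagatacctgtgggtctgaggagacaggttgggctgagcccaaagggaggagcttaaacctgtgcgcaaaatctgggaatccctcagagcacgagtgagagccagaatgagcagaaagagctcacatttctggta
Fga and Fgb hold GTTAAT, 43 and 29 bases before the start, and TTNNGNAA at 1 and 3 places, whereas the Fgg window holds neither. GTTAAT occurs in 7.1% of all mouse promoter windows and was found for 10 genes of the list (C1ra, C4bp, C8a, C8b, F13b, F2, Fga, Fgb, Hc and Vtn), in 35 windows that matched 34 of the 44 genes. The whole HNF1 palindrome, TTGCGCAA and CAAAGTCCA (an HNF4 type site) were in none of the 35, and TTCNNNGAA (a STAT site) in 8 of them against 8.3% of all windows. Letters alone do not show a bound site.

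The ratios between chains of 1 protein varied between mice of a group. Fga over Fgb was 0.697, 0.220 and 0.326 in NC-chow, 0.865, 0.679 and 0.347 in IVF-chow and 0.541, 0.483 and 0.627 in FET-chow mice. Fgg over Fgb went from 0.603 in NC-chow mouse 6 to 1.99 in IVF-chow mouse 2, and C8g over C8a from 1.10 in IVF-chow mouse 2 to 6.81 in IVF-chow mouse 4. Of 33 tests (11 ratios in 3 comparisons), 4 reached the smallest p that the exact permutation test allows here (0.1), and no adjusted p was under 0.55. They were C1qa over C1qb, Kng1 over Kng2 and Mbl1 over Mbl2 in IVF-chow against NC-chow, and C1qa over C1qb in FET-chow against IVF-chow. The fibrinogen and C8 ratios overlapped in all comparisons.

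**Figure D5:**
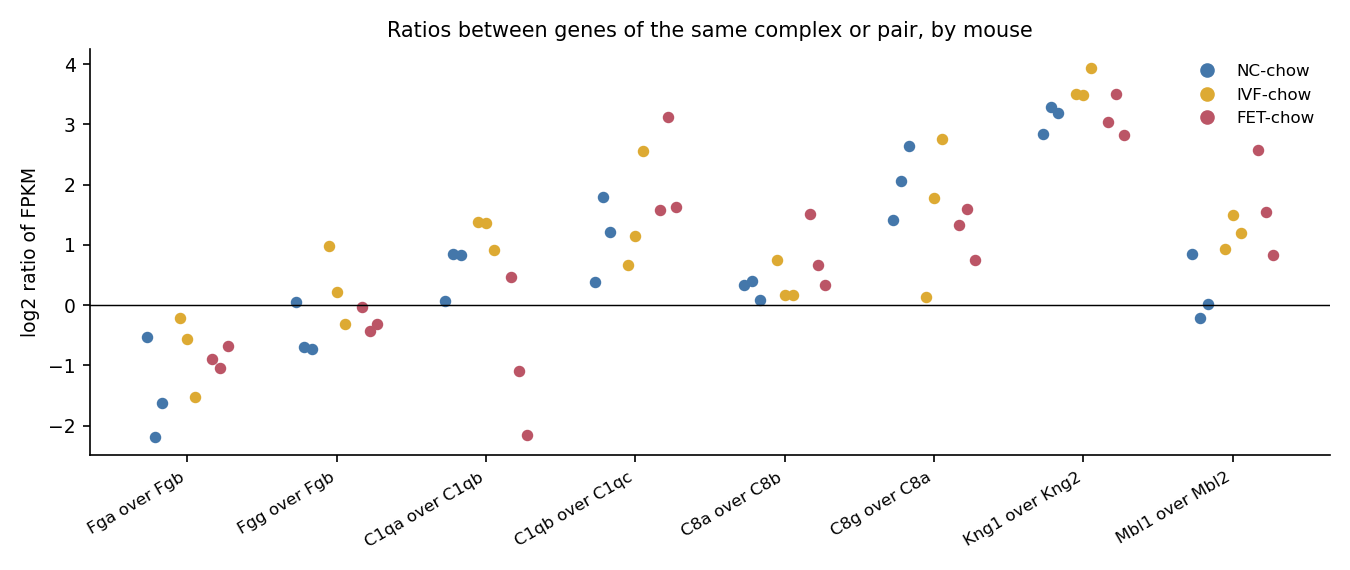
Log2 ratio of FPKM between genes of the same complex or pair (8 of the 11 ratios tested), 1 point per mouse, coloured by group; the line at 0 marks equal FPKM. C1qa over C1qb lies below 0 in FET-chow mice 3 and 4 only.

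F13b, the carrier subunit of the fibrin cross-linking factor XIII, was a low gene. F13b stood, by mouse number, at 2.10, 5.30 and 3.71 FPKM in NC-chow, 1.98, 2.25 and 3.81 FPKM in IVF-chow and 0, 2.81 and 1.64 FPKM in FET-chow livers. It was listed at 0 in FET-chow mouse 2, the smallest library, and was present in the other 8 mice.

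Of the anticoagulants, none had groups apart on both scales. Protein C (Proc) inactivates factors V and VIII with protein S (Pros1) as cofactor, antithrombin (Serpinc1) inhibits thrombin and factor X, and heparin cofactor II (Serpind1) thrombin. NC-chow mice had 89.7, 149 and 146 FPKM of Proc, IVF-chow mice 30.6, 140.5 and 241 FPKM and FET-chow mice 101, 175 and 55.1 FPKM. Rescaled, Proc was 93.7 to 108 in NC-chow, 78.8 to 129.5 in IVF-chow and 112 to 136 in FET-chow mice, so that the FET-chow mice were all above the NC-chow mice. Pros1 had 1.73, 3.83 and 3.19 FPKM in NC-chow mice 1, 5 and 6, 0.607, 1.41 and 2.76 FPKM in IVF-chow mice 2, 3 and 4, and 1.11, 2.29 and 1.164 FPKM in FET-chow mice 2, 3 and 4. Each IVF-chow mouse (1.21 to 1.56 rescaled) was below each NC-chow mouse (1.86 to 2.79) once rescaled. Serpinc1 (11.3 to 114 FPKM) and Serpind1 (9.61 to 101 FPKM) overlapped between all groups on both scales. For FET-chow against NC-chow, the 4 anticoagulants had a median log2 fold change of -0.53 in FPKM and 0.00 rescaled.

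In fibrinolysis, plasminogen (Plg), the precursor of the enzyme that dissolves fibrin, and Cpb2, a carboxypeptidase that slows it, had negative fold changes in FET-chow against NC-chow livers, without passing the test. The FPKM of Plg were 70.4, 116.9 and 116.8 in the NC-chow mice, 31.8, 101 and 114 in the IVF-chow mice and 41.0, 75.8 and 32.7 in the FET-chow mice. Cpb2 stood, by mouse number, at 13.9, 25.0 and 29.1 FPKM in NC-chow, 5.53, 18.7 and 23.7 FPKM in IVF-chow and 8.55, 11.7 and 6.93 FPKM in FET-chow livers. In FPKM all FET-chow mice were below all NC-chow mice for Cpb2, while for Plg FET-chow mouse 3 was above NC-chow mouse 1. Rescaled this turned round: Plg did not overlap (45.2 to 72.7 against 75.2 to 85.3), and FET-chow mouse 4 brought Cpb2 (15.4) above NC-chow mouse 1 (14.9). Serpinf2, the inhibitor of plasmin, went from 14.4 to 137 FPKM and overlapped between groups on both scales.

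Other genes of both systems gave a like picture. Of 56 complement and coagulation genes outside the 44, 27 were tested, and in FET-chow against NC-chow 0 passed in limma and 21 had negative log2 fold changes (median -0.42), while after rescaling 0 passed, 5 had an unadjusted p under 0.05 (16.7% of all genes) and 12 were negative (median 0.03). These 5 were C1s1, a C1 protease, and Tfpi2, with rescaled log2 fold changes of -1.19 and -1.0, and C4a, Cfp (properdin) and Proz (protein Z), with 1.58, 1.73 and 1.65, at limma adjusted p from 0.145 to 0.273. In FPKM, the genes with the 3 smallest p-values in this comparison included Tfpi2, an inhibitor of proteases of clotting and fibrinolysis, at 13.1, 18.1 and 15.8 FPKM in NC-chow, 1.76, 5.14 and 15.2 FPKM in IVF-chow and 3.67, 8.56 and 3.04 FPKM in FET-chow mice, and Ggcx, the vitamin K dependent carboxylase that activates clotting factors, at 0.368 to 5.33, 1.17 to 3.79 and 0 to 1.39 FPKM. In IVF-chow against NC-chow, 0 of the 27 passed and 0 had an unadjusted p under 0.05 in FPKM, with 3 after rescaling (C1s1 and Tfpi2 lower, C4a higher, beside 5.43% of all genes), and in FET-chow against IVF-chow 0 passed with 1 and 2 at that level (4.01% and 9.43% of all genes).

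Of 20 acute phase genes 17 were tested, and none passed in any comparison. Their summed level was 2482 to 2939 FPKM in NC-chow, 582 to 5976 FPKM in IVF-chow and 867 to 4089 FPKM in FET-chow mice, and 15 of 17 had negative log2 fold changes in FET-chow against NC-chow, beside 8 of 17 after rescaling. In that comparison Saa1, Saa2, Apcs and Socs3, all lower, had an unadjusted p under 0.05 in FPKM (12% of all genes). After rescaling, Apcs and Socs3 had such a p (16.7% of all genes). In IVF-chow against NC-chow, Saa2 alone had it in FPKM (4.07% of all genes) and none after rescaling. Neutrophil markers summed to at most 12.9 FPKM, with Mpo at 0 in all mice and all 7 at 0 in FET-chow mice. None of the tested markers of hepatocytes, sinusoidal endothelium, stellate cells, platelets or erythroid cells passed in any comparison. The 9 hepatocyte markers had a median log2 fold change of -1.35 in FPKM and -0.73 rescaled in FET-chow against NC-chow, where the 43 genes had -0.65 and -0.04. The 5 erythroid genes had a rescaled median of -1.26 in IVF-chow against NC-chow, 2 of them with an unadjusted p under 0.05 (5.43% of all genes). In FET-chow against IVF-chow their rescaled median was 1.20, with 3 such genes (9.43% of all genes). Their part in the levels of the complement and coagulation genes was not tested.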

How the data were processed

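Total liver RNA, isolated with TRIzol, was made into cDNA libraries and sequenced on an Illumina system. The authors deposited FPKM values for 55335 Ensembl genes in 9 mice. The submitters' processing notes name FastQC 0.11.5, STAR 2.5.3a, StringTie 1.3.1c and DESeq2 1.16.1 without their roles, and the genome build and annotation are not given in the sources used here. Groups and mouse numbers came from the sample labels, diet and sex from the study's text. Symbols and positions came from GENCODE M21 (GRCm38, 55154 genes matched), promoter windows from RefSeq on GRCm38.p6.

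The values are not counts, so log2(FPKM + 1) was tested with limma 3.58.1 in R 4.3.3, over the 6755 genes with a mean of at least 1 FPKM, with the 3 groups in 1 model, a variance trend, two-sided tests and a Benjamini-Hochberg adjusted p under 0.05 as the threshold. Ratios were compared by exact permutation tests. Fragment numbers were estimated from the steps of low FPKM values of genes (up to 8 fragments, tolerance 2%). They are approximate and give the precision of counting only.

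Genes with values in every mouse were, in each role, the one with the highest mean and the one with the smallest p, those whose FET-chow and NC-chow groups did not overlap, all members of the complexes compared by ratio and those listed at 0 (for Fga, IVF-chow mouse 3 is given in words), with others by range. Of the wider pathway list, the rule named the genes with the 3 smallest unadjusted p in FET-chow against NC-chow. The genes, lists and tests were chosen with earlier results of these data known. Alternatives were a pseudocount of 0.1, no filter or a mean of at least 10 FPKM, median-ratio scaling, rescaling to nuclear protein-coding genes, a block for the mouse number, quantile normalization, models of 2 groups instead of 3, only the libraries numbered 67 to 76 and leaving out each mouse. The last 2 were run on rescaled values as a choice made after seeing the data. Motifs were searched on both strands. The study's other measurements were not used here. Values of 1 gene of the wider pathway list are not reported here.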

Additional observations from a re-analysis of the deposited data

How the results depend on the processing

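No gene of the list had an adjusted p under 0.05 in limma under any alternative. At 1990000 to 13140000 estimated fragments per mouse, low genes rest on few fragments (2 for Masp1 in FET-chow mouse 2), and their differences carry that counting error.

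Over all genes, the number past the threshold for FET-chow against NC-chow (16) was 0 without a filter and 0 in the fit of only the 2 groups, 5 at a mean of at least 10 FPKM and 6 with only libraries 67 to 76. Leaving out 1 mouse gave 1 (without FET-chow mouse 3) to 83 (without NC-chow mouse 1). In IVF-chow against NC-chow (4) it was 0 with a pseudocount of 0.1, no filter, median-ratio scaling, rescaling to nuclear protein-coding genes, quantile normalization or the fit of only the 2 groups, 2 at a mean of at least 10 FPKM, 2 with only libraries 67 to 76, and 0 to 24 (without NC-chow mouse 1) when leaving out 1 mouse. In FET-chow against IVF-chow (6) it was 0 without a filter, in the fit of only the 2 groups and with only libraries 67 to 76, 2 with the replicate block, and 0 (without IVF-chow mouse 4) to 10 (without NC-chow mouse 5, NC-chow mouse 6 or IVF-chow mouse 2) when leaving out 1 mouse. After rescaling, the number in FET-chow against NC-chow (18) was 4 to 113 when leaving out 1 mouse. It was lowest without NC-chow mouse 5, IVF-chow mouse 2 or IVF-chow mouse 4 and highest without NC-chow mouse 1. Rescaled numbers were 0 to 14 in IVF-chow against NC-chow (0) and 0 to 10 in FET-chow against IVF-chow (7), both highest without NC-chow mouse 1. The cause of these shifts was not tested.

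Residuals of IVF-chow and FET-chow mice with equal numbers correlated at -0.131, 0.0215 and -0.255. Mice with unequal numbers ranged from -0.143 to 0.292. These residuals were not rescaled and so carry the composition of each library. They cannot show whether equal numbers mark a shared litter or batch. The block for the number gave 2 genes past the threshold and 0 of the list.

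The number of genes of the list with a negative fold change in IVF-chow against NC-chow (32 of 43) was 18 with median-ratio scaling, 21 with rescaling and 20 with quantile normalization, and between 12 (without IVF-chow mouse 2) and 41 when leaving out 1 mouse. In FET-chow against IVF-chow (33) it was 18 (without IVF-chow mouse 4) to 40. For FET-chow against NC-chow, the median of the list less that of all genes (-0.19) was -0.59 without a filter, 0.07 with a pseudocount of 0.1, 0.02 after rescaling, -0.03 with median-ratio scaling and -0.13 (without FET-chow mouse 2) to -0.43 (without FET-chow mouse 3) when leaving out 1 mouse.

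Signs of single genes turned mainly in IVF-chow against NC-chow. With median-ratio scaling, rescaling and quantile normalization, log2 fold changes became 0.29, 0.19 and 0.24 for F10, 0.44, 0.34 and 0.38 for Fgb, and 0.22, 0.13 and 0.23 for Klkb1, and with median-ratio scaling and quantile normalization 0.07 and 0.02 for C1qb. Masp1 was 0.04 with only libraries 67 to 76, and, rescaled, F10, Fgb and Klkb1 were -0.21, -0.10 and -0.12 there. F7 in FET-chow against IVF-chow was 0.09 after rescaling.

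Leaving out 1 mouse, the log2 fold change of Klkb1 in FET-chow against NC-chow was -0.11 to 0.69. In IVF-chow against NC-chow the ranges were -0.68 to 0.61 for C1qb, -0.92 to 0.99 for F10, -1.32 to 0.05 for F2, -0.44 to 0.65 for Fgb and -0.91 to 0.59 for Klkb1, the upper end without IVF-chow mouse 2. In FET-chow against IVF-chow they were -0.85 to 0.04 for C4bp, -0.21 to 1.70 for F10, -0.90 to 0.38 for F7 and -0.42 to 1.09 for Klkb1. After rescaling they were -0.67 to 0.07 for Fgg in FET-chow against NC-chow, -0.25 to 0.31 for C1qb, -0.09 to 0.67 for F10 and -0.01 to 0.27 for Klkb1 in IVF-chow against NC-chow, and -0.06 to 0.33 for F7 and -0.94 to 0.06 for Masp1 in FET-chow against IVF-chow. The remaining fold changes of the 12 genes whose alternatives were computed (C1qb, C4bp, F10, F11, F12, F2, F7, Fgb, Fgg, Klkb1, Masp1 and Mbl2) kept their sign, 933 of 972 values in all.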
